A study of Mus musculus with 7 samples.

Results

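The thrombospondin genes Thbs1, Thbs2, Thbs3 and Thbs4 and Cacna2d1 were followed in single-cell RNA sequencing of the ventricular-subventricular zone (V-SVZ), the stem cell niche in the lateral walls of the lateral ventricles. These 5 genes, of 32285 in the files, were chosen by their symbols and because Thbs4 had been seen to fall in 2 of 3 Prdm16 cKO libraries. That fall is therefore given here as a description, with no test. The data comprise 3 control libraries (Prdm16 fl/fl littermates without Cre), 3 Prdm16 cKO libraries (Prdm16 fl/fl with hGFAP-Cre) and 1 Prdm16-Vcam1 DKO library (with hGFAP-Cre, floxed Vcam1 alleles on both chromosomes and Prdm16 fl/fl). All mice were 31 to 33 days old and carried floxed Prdm16 alleles, and each library pooled 2 to 3 mice of both sexes. The hGFAP-Cre transgene is active in embryonic radial glia, so it reaches astrocytes, NSCs, ependymal cells and most neural cells that descend from them, but not endothelial cells or microglia.

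Thrombospondins are large secreted glycoproteins of the extracellular matrix that bind calcium, integrins and other cell surface receptors. Thbs1 and Thbs2 form trimers, and Thbs3 and Thbs4 form pentamers together with their relative COMP. Astrocytes secrete thrombospondins, which promote the formation of excitatory synapses, and the calcium channel subunit α2δ-1, the product of Cacna2d1, is their receptor on neurons. Thbs4 is used as a marker of quiescent NSCs in the V-SVZ and is known for its role in the glial response to cortical injury.

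Unique molecular identifiers (UMIs), each counting 1 captured molecule, were counted per gene and cell. The libraries held 45758003 to 141353017 UMIs. The filter of 500 to 7000 genes and at most 10% mitochondrial UMIs kept 70.2% to 74.7% of the barcodes of the control libraries, cKO library 1 and the DKO library, but 49.8% and 47.2% of those of cKO libraries 2 and 3. Of the 43346 cells kept, 32462 were assigned to a cell class by marker genes that included none of the 5 genes, and "-like" is written after each class name for this reason. The NSC-like cells numbered 467 to 1423 per control library, 286 to 886 per cKO library and 977 in the DKO library. Their name is the least secure of the classes, because 6 of 12 NSC markers were highest in NSC-like cells, against 11 of 12 astrocyte markers in astrocyte-like cells and 9 of 9 ependymal markers in ependymal-like cells. A cluster of 1249 cells, 1248 of them from control library 2, was kept out of all classes. Barcodes found in more than 1 library belonged to 731 cells (1.69%). Levels are given as CPM, the UMIs of a gene summed over the cells of a class in a library and scaled to a total of 1000000 UMIs of those cells.

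As label checks, Prdm16 in NSC-like cells was at 72.0, 59.9 and 67.6 CPM in the control libraries, at 54.9, 47.0 and 41.7 CPM in the cKO libraries, while the DKO library gave 54.7 CPM. A 3′ tag can lie outside the deleted exons, so a remaining Prdm16 signal does not show that the gene was intact. Prm1, whose UMIs were nearly absent from control NSC-like cells (0 to 0.457 CPM), reached 157, 287 and 452 CPM across the cKO group and 160 CPM in the DKO sample. Vcam1 stood at 148, 120 and 101 CPM in the control libraries, 146, 158 and 165 CPM in the cKO libraries and 84.5 CPM in the DKO library. The DKO library was thus lowest but close to the controls, so Vcam1 RNA is a weak check of its label.

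Thbs4, on the minus strand of chromosome 13 (GRCm38, chr13:92751590-92794818, ENSMUSG00000021702), was high in the astroglia of control tissue. In NSC-like cells of control libraries 1, 2 and 3 it stood at 454, 614 and 329 CPM, a mean of 466 ± 143 (SD, n = 3). In astrocyte-like cells the same libraries gave 127, 170 and 96.7 CPM, a mean of 131 ± 36.6 (SD, n = 3). Thbs4 was thus higher in NSC-like cells of every control library, by 1.67 ± 0.06 (SE) on the log2 scale (edgeR quasi-likelihood test with library as a block, adjusted p = 4.7e-12). Of the 12629 genes tested between these 2 classes, 24.5% were called higher in NSC-like cells. Astroglia whose scores fell between both classes held 469 ± 236 CPM (SD, n = 3). The difference was 5.90 ± 0.12 (SE) from ependymal-like cells (adjusted p = 1.8e-25), the ciliated cells that line the ventricle, where 36.6% of genes were called higher, and 5.40 ± 0.14 (SE) from TAP-like cells (adjusted p = 5.8e-12), the dividing transit amplifying precursors, where the share was 40.1%.

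The other classes tested, ependymal-like and TAP-like cells among them, held a control mean of 3.38 to 11.1 Thbs4 CPM. Erythroid-like cells, which were not tested, held 10.2 to 75.3 CPM in the control libraries from 55 to 383 cells each, 0 to 3.40 CPM in the cKO libraries and 7.80 CPM in the DKO sample. Microglia-like and endothelial-like cells, for example, were at 11.1 ± 4.58 and 3.71 ± 2.06 CPM (SD, n = 3). Free RNA in the droplets was not measured, so the source of values of this size was not tested. No order was therefore drawn among ependymal-like, TAP-like, neuroblast-like, neuron-like, OPC-like and oligodendrocyte-like cells.

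**Figure D1:**
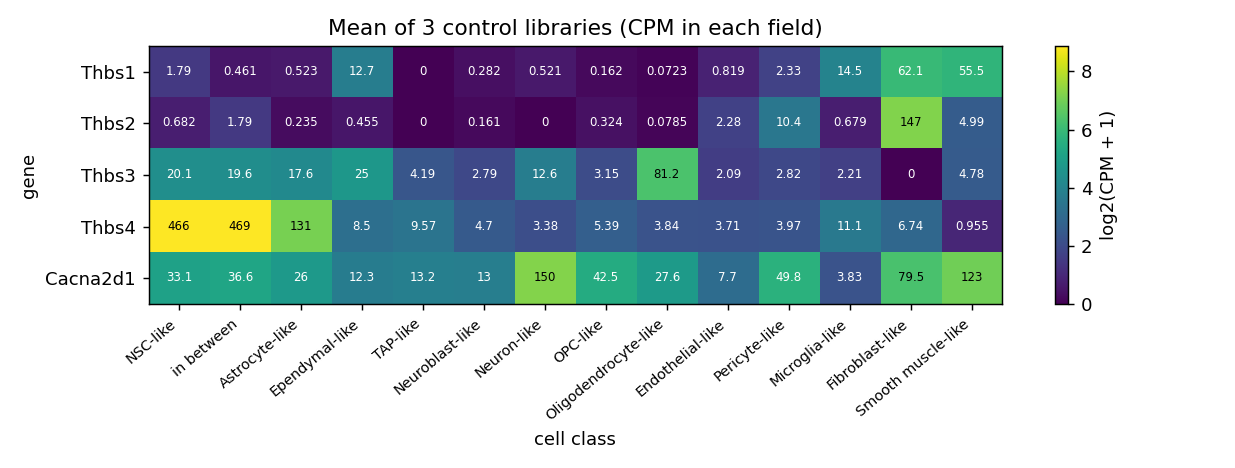
Mean CPM of each gene (rows) in each cell class (columns) over the 3 control libraries, with the value in each field and colour giving log2(CPM + 1). Thbs4 is bright in the 3 astroglial classes, Thbs3 in oligodendrocyte-like cells, Thbs2 in fibroblast-like cells and Cacna2d1 in neuron-like and smooth muscle-like cells.

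Among the 7066 other genes with a mean of at least 20 CPM in NSC-like cells, those whose log2(CPM + 1) followed Thbs4 most closely over 11 cell classes (means of the control libraries) were Lgi4 (Pearson r = 0.97), Tnc (0.96), Gm266 (0.95), Pdzph1 (0.95) and Scara3 (0.94). Tnc encodes tenascin C, a matrix glycoprotein of the stem cell niche, and stood at 55.1 CPM in NSC-like and 33.8 CPM in astrocyte-like cells. Lgi4, a secreted glial protein, stood at 125 and 141 CPM, so its profile shared the absence outside astroglia rather than the step between both classes. These correlations describe 11 class means that share the same libraries.

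The sequence before the Thbs4 start and that before the Thbs3 start are shown because the levels of these genes lay on opposite sides of the controls in astrocyte-like cells of the cKO libraries. Each is the stretch of 250 bases upstream of the gene on its own strand, from RefSeq on GRCm38.p6, with GC boxes, CCAAT boxes and TATA-like motifs on either strand in capitals. The letters searched for a GC box were GGGCGG. Those for a TATA-like motif were TATAAA, and the CCAAT box is named by its letters. The Thbs4 stretch is at chr13:92794819-92795068 (minus strand) and the Thbs3 stretch at chr3:89214930-89215179 (plus strand). Thbs1 is named only.
Thbs4: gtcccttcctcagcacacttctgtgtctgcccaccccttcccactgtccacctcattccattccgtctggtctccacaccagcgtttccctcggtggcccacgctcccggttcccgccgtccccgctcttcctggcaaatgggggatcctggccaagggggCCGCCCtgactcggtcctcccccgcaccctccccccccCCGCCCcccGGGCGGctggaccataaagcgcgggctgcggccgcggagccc
Thbs3: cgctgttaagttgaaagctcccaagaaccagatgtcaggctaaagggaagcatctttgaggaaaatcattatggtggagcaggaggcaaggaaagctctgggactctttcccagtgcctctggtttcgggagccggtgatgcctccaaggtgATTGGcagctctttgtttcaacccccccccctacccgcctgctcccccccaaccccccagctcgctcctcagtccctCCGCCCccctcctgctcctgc

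The Thbs4 stretch held 3 GC boxes, 0 CCAAT boxes and 0 TATA-like motifs, and the Thbs3 stretch held 1, 1 and 0. GC boxes were present in 32.7% of 32851 such promoters, CCAAT boxes in 33.8% and TATA-like motifs in 12.4%. The motif TGGGAA was found 1 time in each stretch and in 21.6% of promoters. The motif GGAATG was found 2 times before Thbs4, 0 times before Thbs3 and in 12.6% of promoters. The motif CANNTG was found 1 time in each and in 66.2% of promoters. The last 3 are not marked in the sequences. The GC content was 70.8% for Thbs4 and 58.8% for Thbs3, beside a median of 52.4% over all promoters. None of these matches is evidence of binding.

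Across the cKO group (libraries 1, 2 and 3), NSC-like Thbs4 stood at 398, 39.7 and 20.4 CPM, and the DKO library gave 229 CPM. The control libraries were at 454, 614 and 329 CPM, so cKO library 1 lay within the control range, cKO libraries 2 and 3 lay far below it, and the groups overlapped. The mean of the cKO libraries was 153 ± 213 CPM (SD, n = 3), 0.328 times that of the controls. The fitted log2 fold change was -1.55 with a standard error of 1.23, and it was -3.91 without cKO library 1. Among the libraries processed with Cell Ranger 6.0.1 (2 of each group) the cKO mean of log2(CPM + 1) was 2.05 lower, written -2.05, and in the pair processed with version 6.1.1 the difference was -3.95.

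**Figure D2:**
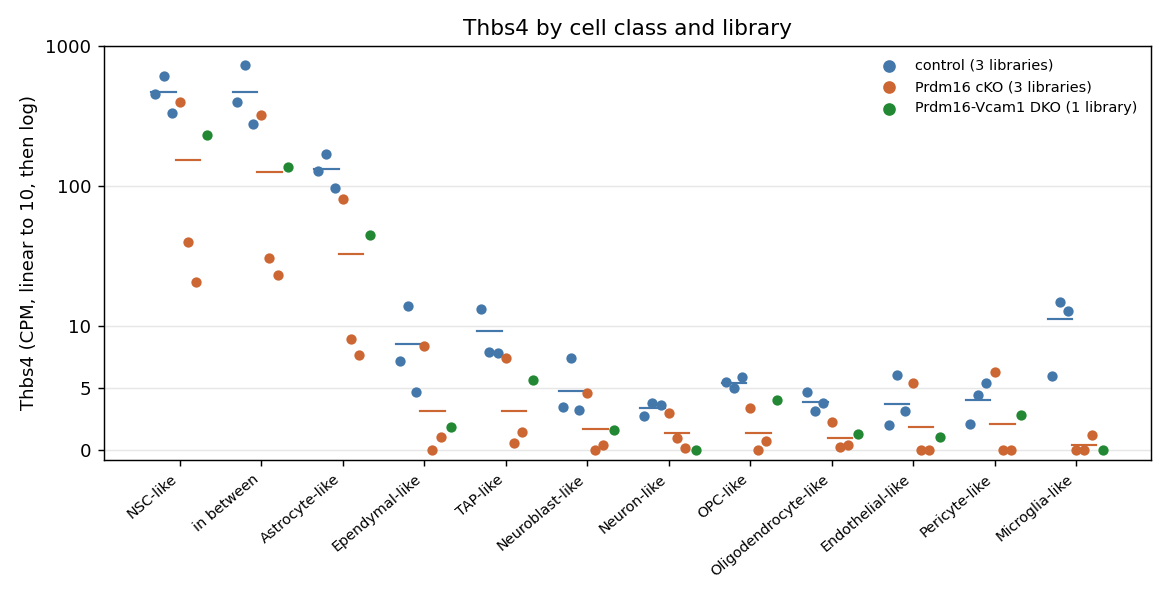
Thbs4 CPM in each cell class, 1 point per library, with a horizontal line at the mean of the 3 control and of the 3 cKO libraries. The axis is linear up to 10 CPM and logarithmic above. In NSC-like cells 1 cKO library (398 CPM) lies among the controls and the other two (39.7 and 20.4 CPM) lie far below, and in the classes outside astroglia every value drawn is at or under 14.6 CPM.

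The same order of libraries was found in astrocyte-like cells, where Thbs4 was at 80.9, 8.87 and 7.65 CPM across the cKO group and 44.6 CPM in the DKO sample. All 3 cKO libraries and the DKO library lay below the lowest control library (96.7 CPM), as the cKO libraries did for 7.14% of the genes tested in these cells. In astroglia between both classes the cKO mean was 125 ± 171 CPM (SD, n = 3), with values from 22.9 to 323 CPM, and the DKO library was at 137 CPM, against 275 to 732 CPM in the control libraries. Of the classes with low values, microglia-like cells held a mean of 11.1 CPM in control and 0.41 CPM in cKO libraries. Pericyte-like cells held 2.08 to 5.40 CPM in the control libraries, 6.29 CPM in cKO library 1 and 0 in cKO libraries 2 and 3. Endothelial-like cells held 2.03 to 6.01 CPM, 5.39 CPM and 0, so cKO library 1 was not below the controls in either class. Nor was cKO library 1 below them in ependymal-like, neuroblast-like and neuron-like cells, at 8.32, 4.54 and 2.96 CPM. In microglia-like, oligodendrocyte-like, TAP-like and OPC-like cells, however, cKO library 1 was under the lowest control value, like cKO libraries 2 and 3. Its levels there were 0, 2.20, 7.41 and 3.37 CPM, beside control minima of 5.93, 3.13, 7.80 and 4.94 CPM.

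Fewer cells with any Thbs4 accompanied the lower sums. When each cell was thinned to 3000 UMIs, leaving out shallower cells, a Thbs4 UMI was present in 59.4%, 65.1% and 49.5% of NSC-like cells of control libraries 1, 2 and 3, which kept 805, 375 and 1214 cells. The shares were 49.9% (95% exact binomial interval 46.2 to 53.5) of 738 cells in cKO library 1, 6.80% (3.77 to 11.1) of 206 in cKO library 2 and 4.43% (2.89 to 6.47) of 564 in cKO library 3. The DKO library stood at 39.9% (36.5 to 43.3) of 825 cells, below the 3 control libraries. These intervals cover counting error only. Thinning left out 470, 92, 209, 148, 80, 219 and 152 cells of control libraries 1 to 3, cKO libraries 1 to 3 and the DKO library, and without thinning the shares were 60.2%, 73.2%, 61.6%, 55.2%, 10.1%, 10.7% and 52.0%.

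Endothelial-like cells, thinned alike, carried a Thbs4 UMI in 0.595% to 2.30% of cells in the control libraries, with median depths of 5152 to 6351 UMIs against 6047 to 9962 in NSC-like cells. In cKO libraries 2 and 3 there were 0 of 105 and 0 of 274 such endothelial-like cells, with exact upper limits of 3.45% and 1.34%. The remaining Thbs4 in NSC-like cells of these 2 libraries thus lay above the share measured in endothelial-like cells of the same library. Cells with at least 3 Thbs4 UMIs after thinning made up 13.6% to 31.2% of control NSC-like cells, 18.3% in cKO library 1, 0.971% in cKO library 2, 0.355% in cKO library 3 and 9.82% in the DKO library.

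**Figure D3:**
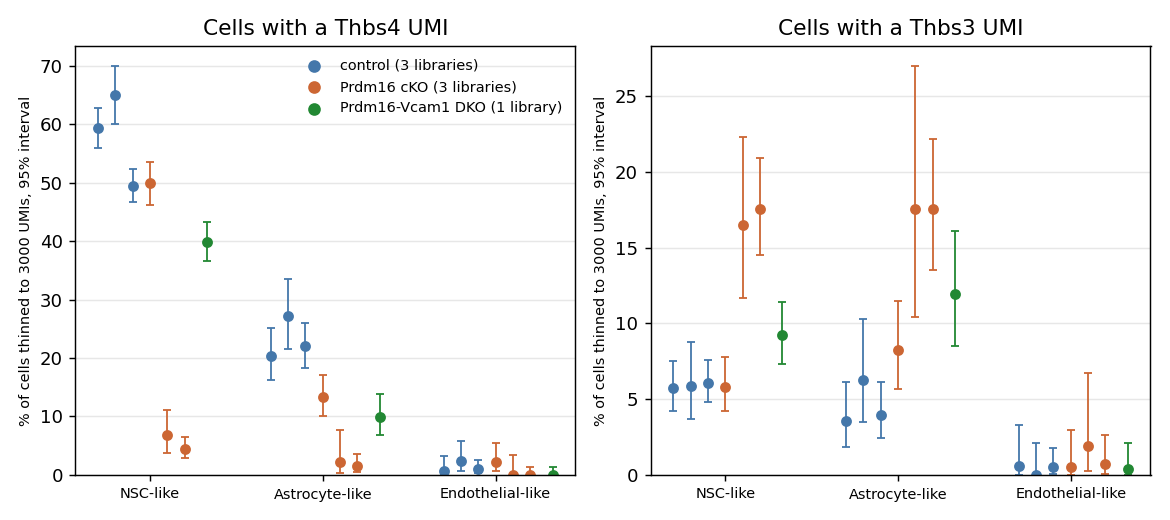
Percent of cells with at least 1 UMI of Thbs4 (left) or Thbs3 (right) after thinning each cell to 3000 UMIs, by class and library, with 95% exact binomial intervals. For Thbs4 in NSC-like cells, cKO libraries 2 and 3 (6.80% and 4.43%) lie close to the axis while cKO library 1 (49.9%) lies beside the control libraries.

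Different clusters held most NSC-like cells of different libraries, so Thbs4 was also read within clusters that were built without the 5 genes, Prdm16, Vcam1 and Prm1. The first cluster, here called control-rich, held 73.1%, 75.2% and 77.2% of NSC-like cells of control libraries 1, 2 and 3, 62.1%, 4.20% and 0.894% of those of cKO libraries 1, 2 and 3, and 60.3% of those of the DKO library. The other, here called control-poor, held 0.235% to 1.28% of control NSC-like cells, 15.3%, 60.5% and 64.4% in the cKO libraries and 15.4% in the DKO library. Genes that differ between genotypes took part in forming both clusters, so their sizes are given as the basis of the values and not as a result.

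Within the control-rich cluster Thbs4 was at 526, 724 and 376 CPM in the control libraries. In the same cluster it was at 607 CPM (95% Poisson interval 581 to 634) in cKO library 1, at 546 CPM (423 to 694) in the 12 cells of cKO library 2, at 484 CPM (307 to 727) in the 7 cells of cKO library 3 and at 353 CPM (338 to 369) in the DKO library. The cKO values all lay inside the control range, and the DKO library lay just under it. Within the control-poor cluster Thbs4 was at 19.8 CPM (12.4 to 30.0) in cKO library 1, 20.6 CPM (15.1 to 27.5) in cKO library 2, 19.8 CPM (16.5 to 23.6) in cKO library 3 and 34.9 CPM (27.5 to 43.6) in the DKO library. Within each cluster the counting intervals of the 3 cKO libraries overlapped, those of cKO library 1 included, whose sum over all NSC-like cells lay in the control range. These intervals cover counting error only. Genes whose levels go with Thbs4 may have shaped the clusters, so the part of cluster make-up in the fall was not tested. Only 3, 6 and 10 control cells fell in the control-poor cluster, with 1358, 570 and 293 CPM, each from few cells.

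**Figure D4:**
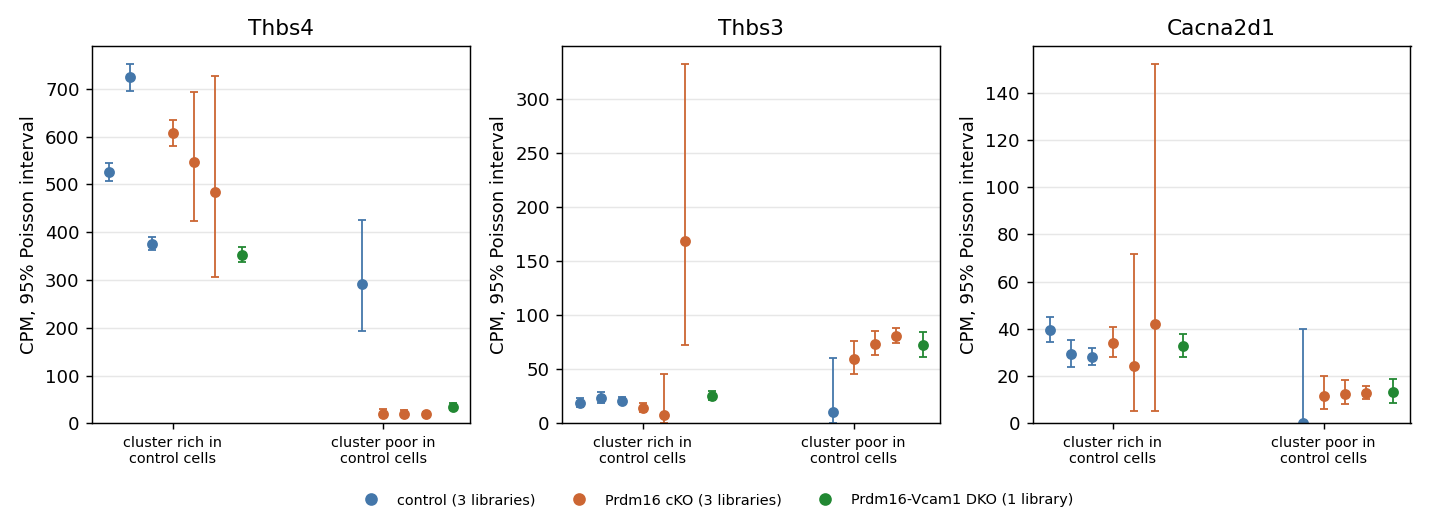
CPM of Thbs4, Thbs3 and Cacna2d1 in 2 clusters of NSC-like cells made without these genes, 1 point per library with its 95% Poisson interval for counting error; libraries with under 7 cells in a cluster are not drawn. Thbs4 is high in the cluster rich in control cells in all 7 libraries (353 to 724 CPM) and low in the cluster poor in control cells in the 3 cKO libraries and the DKO library (19.8 to 34.9 CPM), and Thbs3 has the opposite order in cKO libraries 1 and 2 and the DKO library. In the cluster poor in control cells the control point is 10 cells of control library 3.

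The Prm1 signal was carried by 26.9%, 52.1% and 67.4% of the NSC-like class in cKO libraries 1, 2 and 3 and by 36.0% in the DKO library, against 0, 2 and 1 cells in the control libraries. In cKO library 1 Thbs4 stood at 363 CPM (339 to 390) in the 238 marked cells and at 420 CPM (399 to 442) in the 648 unmarked cells. The DKO library gave 194 CPM (181 to 208) in 352 marked and 261 CPM (247 to 276) in 625 unmarked cells. In cKO library 2 the marked cells were at 44.2 CPM (35.8 to 54.0) and the unmarked at 26.8 CPM (16.4 to 41.4), and in cKO library 3 at 19.5 CPM (16.2 to 23.2) and 25.6 CPM (17.3 to 36.6), so that neither pair was separated by its counting intervals and unmarked cells of these libraries were as low as marked ones. Marked cells had the larger median UMI count in all 4 libraries, for example 14430 against 3266 UMIs in cKO library 2, so unmarked cells include shallow cells in which Prm1 may have gone uncounted.

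Within the control-rich cluster, marked cells gave 747 CPM of Thbs4 and unmarked cells 553 CPM in cKO library 1, and 417 and 320 CPM in the DKO library. The few cells of the other libraries gave 699 CPM (527 to 910) in 6 marked and 273 CPM (141 to 477) in 6 unmarked cells of cKO library 2, and 397 CPM (190 to 730) in 3 marked and 584 CPM (311 to 998) in 4 unmarked cells of cKO library 3. Marked cells were thus higher in 3 of the 4 libraries and lower in cKO library 3, where the intervals overlapped. Within the control-poor cluster the marked cells of the 3 cKO libraries were at 18.0, 21.6 and 19.5 CPM and the unmarked at 29.9, 15.9 and 22.4 CPM. In the DKO library the 123 marked cells of this cluster were at 22.6 CPM (16.4 to 30.3) and the 27 unmarked at 128 CPM (87.9 to 179), with no overlap of the intervals. The latter value rests on 33 UMIs. These intervals cover counting error only, so a few cells rich in Thbs4 could give such a gap.

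Marker genes of astroglia also differed between the same libraries. Agt, which encodes angiotensinogen, stood at 12.9, 28.1 and 16.3 CPM in the control libraries and at 123, 484 and 609 CPM across the cKO group, with 111 CPM in the DKO sample. Crym was at 732 to 819 CPM in the control libraries and at 765, 139 and 50.3 CPM in the cKO libraries, and Urah at 59.4 to 72.7 CPM in the control libraries and at 49.2, 0.691 and 1.45 CPM in the cKO libraries. Gfap, the glial filament gene, stood at 283 to 426 CPM and at 391, 876 and 1097 CPM. Summed over the 12 NSC markers, the level was 6642 to 7131 CPM in control and 6925 to 7537 CPM in cKO libraries, with 2 markers above and 2 below in every cKO library and none at 0. Above were Vim, at 457 to 604 CPM in control and 734, 1118 and 1154 CPM in cKO libraries, and Veph1. Below were Urah and Hes5, the latter at 460 to 716 CPM in control and 429, 119 and 190 CPM in cKO libraries. Crym and Gfap overlapped the controls in cKO library 1. To separate NSC-like from astrocyte-like cells, 8 of the 12 NSC and 11 of the 12 astrocyte markers were used. Both sums were thus partly set by the gate. The NSC markers not used were Hopx, Hes5, Crym and Urah, all below every control library in cKO libraries 2 and 3. Hopx stood at 17.3 to 30.9 CPM in control and at 25.8, 7.25 and 14.3 CPM in cKO libraries. For the 12 astrocyte markers the sum was 1746 to 1938 CPM in control and 1975 to 2379 CPM in cKO libraries, with 2 above, 0 below and none at 0. The 2 above were Agt and Aqp4, the latter at 105 to 152 CPM in control and 191, 427 and 489 CPM in cKO libraries. The sum thus lay above every control library in every cKO library, but no marker of the list other than Agt and Aqp4 did. Cldn10, for example, was at 402 to 554 CPM in control and 452, 247 and 285 CPM in cKO libraries. For the 9 ependymal markers the sum was 264 to 381 and 330 to 512 CPM, with 4 above and none at 0. Their part in the Thbs4 result was not tested. With Agt, Gfap and Vim left out of the gate, a choice made after the data were seen, the fitted Thbs4 change was -1.53.

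Of the 7066 genes compared, those whose log2(CPM + 1) followed Thbs4 most closely over the 7 libraries in NSC-like cells were Tnfrsf19, Mfge8, Nsmce2, Tspan13 and Cnr1, each with a Pearson r of 0.99 or above. Tnfrsf19, a receptor of the TNF receptor family and a known NSC marker, was at 324, 359 and 284 CPM in the control libraries, at 275, 75.3 and 46.6 CPM in the cKO libraries and the DKO library gave 191 CPM. Mfge8, a secreted bridging protein for phagocytosis, was at 568, 676 and 515 CPM, then at 493, 224 and 194 CPM, and the DKO library gave 456 CPM. Cnr1, the cannabinoid receptor gene, was at 34.3 to 44.9 CPM in the control libraries and at 33.7, 8.63 and 5.40 CPM in the cKO libraries. Such correlations over 7 libraries follow whatever separates cKO libraries 2 and 3 from the others.

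Thbs3, on the plus strand of chromosome 3 (chr3:89215180-89226837, ENSMUSG00000028047), was the only tested member whose rise passed the threshold, in astrocyte-like cells only. In astrocyte-like cells it stood at 14.3, 24.2 and 14.4 CPM in control libraries 1, 2 and 3, and cKO libraries 1, 2 and 3 gave 38.5, 63.9 and 80.9 CPM. Every cKO library lay above every control library, which held for 6.87% of the 12393 genes tested, and the DKO library, at 54.3 CPM, lay among the cKO libraries. The increase was 1.85 ± 0.29 (SE) on the log2 scale (edgeR quasi-likelihood test, adjusted p = 0.0124), a ratio of means of 3.47. In these cells 131 genes (1.06%) were called, 112 of them (0.904%) higher. The call was lost without control library 1 (adjusted p = 0.059), control library 3 (adjusted p = 0.10) or cKO library 2 (adjusted p = 0.083), where the log2 change was 1.71 to 1.85.

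In NSC-like cells Thbs3 was at 19.1, 20.8 and 20.4 CPM in the control libraries, at 23.5, 60.1 and 75.6 CPM in the cKO libraries and the DKO library gave 35.9 CPM. The groups did not overlap, but cKO library 1 was close to the controls, and the log2 change of 1.48 ± 0.43 (SE) did not pass (adjusted p = 0.204). Without cKO library 1, a split tied to how the genes followed here were chosen, the change was 1.86, given as a description with no test. A Thbs3 UMI was present in 5.71% to 6.096% of control NSC-like cells thinned to 3000 UMIs, and in 5.83%, 16.5% and 17.6% of those of cKO libraries 1, 2 and 3, against 0% to 0.595% of control endothelial-like cells.

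Within the control-rich cluster Thbs3 was at 14.3 CPM (10.6 to 19.0) in cKO library 1 and 25.6 CPM (21.5 to 30.1) in the DKO library, beside 19.1 to 23.2 CPM in the control libraries. The 12 cells of cKO library 2 in this cluster gave 8.16 CPM (0.21 to 45.4) and the 7 cells of cKO library 3 gave 168 CPM (72.7 to 332), the latter above the control range. Within the control-poor cluster it was at 59.4, 73.6 and 81.1 CPM in the cKO libraries and 72.1 CPM in the DKO sample. The 2 libraries with over 100 cells in each cluster, cKO library 1 and the DKO library, held both levels. In cKO library 1 the Prm1-marked NSC-like cells had 38.3 Thbs3 CPM (30.5 to 47.5) and the unmarked 14.3 CPM (10.6 to 18.8), and in the DKO library 51.6 CPM (45.1 to 58.7) and 21.8 CPM (17.8 to 26.3), with no overlap of the intervals in either library. Marked and unmarked cells stood at 67.9 and 37.5 CPM in cKO library 2 and at 80.2 and 50.4 CPM in cKO library 3, also with no overlap. Within each cluster, however, the intervals of marked and unmarked cells of cKO library 1 and the DKO library overlapped. In the control-rich cluster they were 10.5 to 28.7 and 8.86 to 18.3 CPM in cKO library 1. For the DKO library they were 26.3 to 43.6 and 16.7 to 26.4 CPM, so they barely met. The control-poor cells of cKO library 1 gave 66.8 CPM (51.3 to 85.5) when marked. Unmarked, they gave 17.9 CPM (3.70 to 52.4) from 3 UMIs, so these intervals also barely met. The control-poor cells of the DKO library gave 76.0 CPM (64.2 to 89.2) and 42.6 CPM (21.3 to 76.2). Marked cells of these 2 libraries had the higher value in each case. Overlap of counting intervals does not show that marked and unmarked cells were alike. In the control-poor cluster of cKO library 3 the 413 marked cells gave 84.8 CPM (77.4 to 92.8). The 91 unmarked cells there gave 49.2 CPM (33.9 to 69.1), with no overlap. The intervals of cKO library 2 overlapped in that cluster, at 77.2 and 55.7 CPM. The few control-rich cells of cKO libraries 2 and 3 had overlapping intervals, with marked cells lower in cKO library 3. The part of cluster make-up was not tested.

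Oligodendrocyte-like cells, the myelinating glia, had the highest control level of Thbs3, with 72.1 to 86.3 CPM in the control libraries, 56.9 to 74.9 CPM in the cKO libraries and 64.6 CPM in the DKO library. The groups overlapped, and the change was -0.21 ± 0.14 (SE) (adjusted p = 1.00 in edgeR). The effect in NSC-like cells exceeded that in oligodendrocyte-like cells by 1.62 ± 0.52 (SE), a difference that did not pass (adjusted p = 0.371, over 15858 genes of which 0.151% were called), so the effects were not shown to differ. Ependymal-like cells held 24.97 ± 3.24 CPM in control and 30.2 ± 10.2 CPM in cKO libraries (SD, n = 3 each), with overlapping groups (adjusted p = 0.836 in edgeR). Mtx1 lies over the whole of Thbs3 on the opposite strand, and its level in astrocyte-like cells was 35.3 to 47.0 CPM in control and 31.2 to 46.1 CPM in cKO libraries, so its groups overlapped.

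Thbs1 (plus strand, chr2:118111876-118127133, ENSMUSG00000040152), best known as an inhibitor of angiogenesis and an activator of latent TGF-β, was low in astroglia. In NSC-like cells it stood at 1.97, 1.60 and 1.79 CPM in the control libraries, from 13, 7 and 19 UMIs, at 4.24, 15.2 and 10.7 CPM in the cKO libraries, from 24, 44 and 81 UMIs, and the DKO library gave 5.997 CPM. Every cKO library lay above every control library, as for 7.08% of the 14555 genes tested. The log2 change of 2.50 ± 0.45 (SE) narrowly missed the threshold (adjusted p = 0.0521 in edgeR). Without cKO library 1, a split tied to how the genes followed here were chosen, it was 2.88, given as a description with no test. It was past the threshold in edgeR with plain library totals (adjusted p = 0.0189), without doublets (0.0475) and with clusters in place of gates (0.0307). Of the alternative runs, 12 stayed short of the threshold and 7 passed it, the run without cKO library 1 among the latter.

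In ependymal-like cells Thbs1 was at 11.1, 12.6 and 14.3 CPM in the control libraries, at 17.0, 60.5 and 42.0 CPM in the cKO libraries and the DKO library gave 29.7 CPM. The groups did not overlap, as for 4.68% of the 13256 genes tested in that direction. The change was 1.64 ± 0.48 (SE) and did not pass (adjusted p = 0.432 in edgeR). Without cKO library 1, a split tied to how the 5 genes were chosen, it was 2.05, given as a description with no test. In control libraries Thbs1 was 2.89 lower on the log2 scale in NSC-like than in ependymal-like cells (-2.89 ± 0.30 (SE), adjusted p = 1.2e-09), as 33.2% of genes were. Smooth muscle-like cells, from 5 to 38 cells per library, held 34.5 to 85.9 CPM in control and 0 to 70.8 CPM in cKO libraries.

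Cacna2d1 (plus strand, chr5:15934691-16374511, ENSMUSG00000040118) encodes the α2δ-1 subunit of voltage-gated calcium channels. Neuron-like cells held 150 ± 25.9 CPM in control and 186 ± 42.3 CPM in cKO libraries (SD, n = 3 each), smooth muscle-like cells 123 ± 26.9 and 112 ± 64.5 CPM, fibroblast-like cells, from 4 to 22 per library, 79.5 ± 43.6 and 44.8 ± 21.7 CPM, and pericyte-like cells 49.8 ± 9.42 and 62.2 ± 2.77 CPM. OPC-like cells, the precursors of oligodendrocytes, held 42.5 ± 7.06 and 37.5 ± 8.003 CPM. In none of the neuron-like, pericyte-like and OPC-like cells did the groups separate, and the adjusted p from edgeR was 0.995 or higher.

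In NSC-like cells Cacna2d1 was at 41.1, 29.3 and 29.1 CPM in the control libraries, at 27.9, 14.2 and 15.0 CPM in the cKO libraries and the DKO library gave 28.4 CPM. No cKO value reached a control value, as for 9.58% of all genes tested in that direction, but the gap between the closest libraries was small and the change of -0.71 ± 0.24 (SE) did not pass (adjusted p = 0.223 in edgeR). Without cKO library 1, a split tied to how the 5 genes were chosen, it was -1.07, given as a description with no test. The cKO libraries were also lower in astrocyte-like cells (16.2 to 22.1 against 23.3 to 31.6 CPM), where the change was -0.43 ± 0.22 (SE) with an adjusted p of 0.573, and 7.14% of genes tested lay below in this way. Within the control-poor cluster Cacna2d1 was at 11.7, 12.6 and 12.8 CPM in the cKO libraries and 13.1 CPM in the DKO library, and within the control-rich cluster at 28.0 to 39.5 CPM in the control libraries, 33.9 CPM in cKO library 1 and 32.8 CPM in the DKO library, with 24.5 CPM (5.05 to 71.5) in the 12 cells of cKO library 2 and 42.1 CPM (5.10 to 152) in the 7 cells of cKO library 3. Neuroblast-like cells, the migrating young neurons, gave 9.95 to 15.1 CPM in control and 14.2 to 29.3 CPM in cKO libraries (0.87 ± 0.28 (SE), adjusted p = 0.504 in edgeR). Control libraries showed no difference between NSC-like and astrocyte-like cells past the threshold (0.19 ± 0.11 (SE), adjusted p = 0.167), nor did Thbs3 (0.10 ± 0.16 (SE), adjusted p = 0.621).

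**Figure D5:**
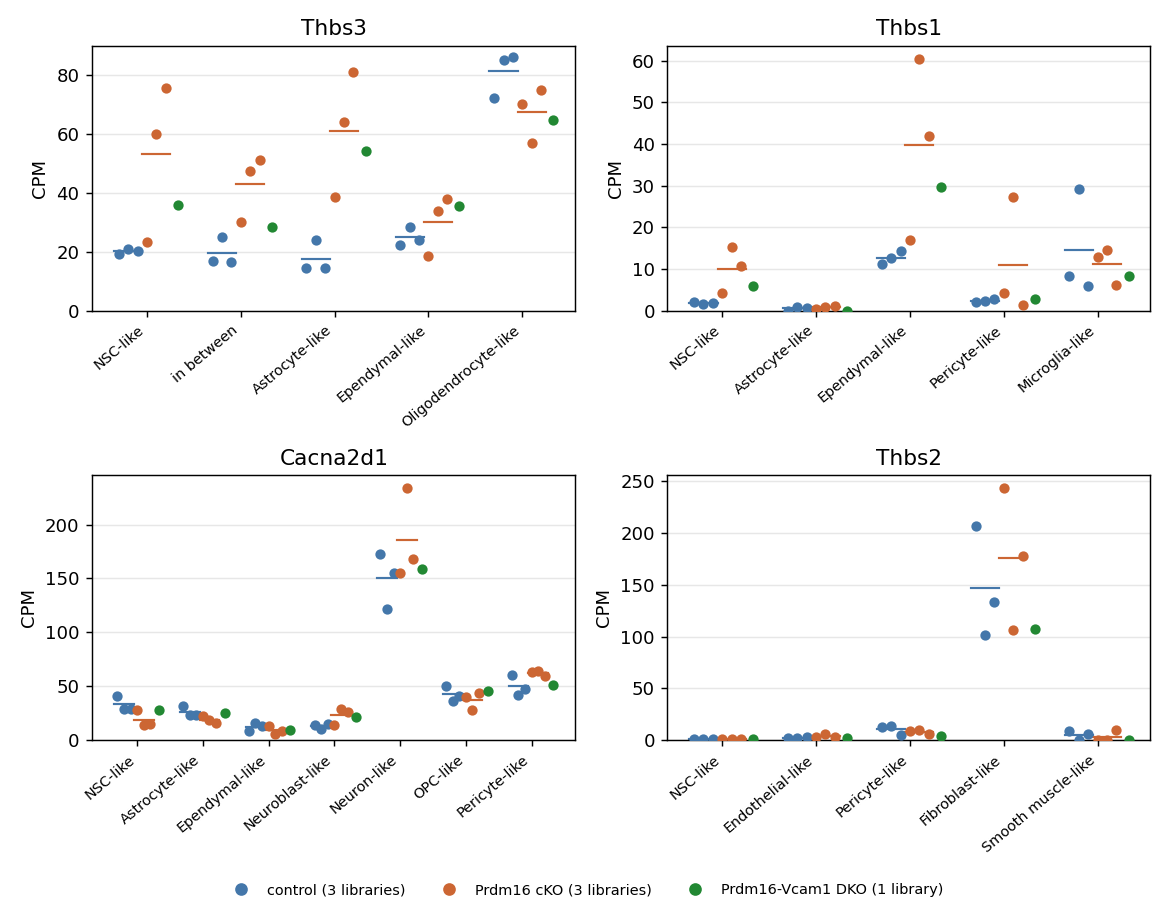
CPM of Thbs3, Thbs1, Cacna2d1 and Thbs2 in selected classes, 1 point per library, with a horizontal line at the mean of the 3 control and of the 3 cKO libraries. Smooth muscle-like and fibroblast-like cells are not drawn for Thbs1 (control means of 55.5 and 62.1 CPM) or Cacna2d1 (123 and 79.5 CPM). Thbs3 in astrocyte-like cells (14.3 to 24.2 CPM in control, 38.5 to 80.9 CPM in cKO libraries) is the panel in which the test was passed.

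Thbs2 (minus strand, chr17:14665500-14694235, ENSMUSG00000023885), which shares anti-angiogenic functions with Thbs1, was found in fibroblast-like cells. These were few, 4 to 19 cells per control library and 9 to 22 per cKO library, and were not tested. Their Thbs2 level was 147 ± 54.2 CPM in control and 176 ± 68.7 CPM in cKO libraries (SD, n = 3 each) and 107 CPM in the DKO library, with overlapping ranges of 101 to 207 and 106 to 244 CPM. Pericyte-like cells held 10.4 ± 4.32 and 8.03 ± 2.36 CPM. In NSC-like cells Thbs2 was at 0.607 to 0.752 CPM in control and 0.882 to 1.38 CPM in cKO libraries, and it was left out of the test there by the low-count filter.

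In all, 22 tests of Thbs1, Thbs2, Thbs3 and Cacna2d1 were made over 11 cell classes. The 1 call was Thbs3 in astrocyte-like cells, 6 tests had an unadjusted p under 0.05, and in 7 the groups did not overlap. One of the 7 was Thbs2 in endothelial-like cells, with 2.28 ± 0.45 CPM in control and 4.13 ± 1.76 CPM in cKO libraries (SD, n = 3 each), where 1.44% of 11270 genes lay above in every cKO library. Over all genes in NSC-like cells, 30 of 14555 (0.206%) were called, all higher in cKO libraries, and 13.3% had an unadjusted p under 0.05. In astrocyte-like cells, where the 1 call was made, 1.06% of genes were called. Every cKO library lay above every control library for 7.08% of genes in NSC-like, 6.87% in astrocyte-like and 4.68% in ependymal-like cells. The shares below were 9.58%, 7.14% and 7.06%. The 22 tests reuse the same libraries, so these counts are not independent.

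Receptors and partners of the thrombospondins were taken as fixed lists. Of 14 tested receptors and binding partners in NSC-like cells, 0 passed, where 0.206% of all genes did. Of these, 1 was above and 2 were below in every cKO library, beside 7.08% and 9.58% of all genes, and the median log2 change was 0.10 beside -0.01 over all genes tested. Itga6, the integrin α6 subunit, was at 24.6 to 31.8 CPM in the control and at 32.6, 75.3 and 74.1 CPM in the cKO libraries (1.19 ± 0.31 (SE), adjusted p = 0.144 in edgeR). Itgb5 and Notch1 were the pair below, Itgb5 with 65.4 to 88.3 CPM in control and 44.9 to 64.9 CPM in cKO libraries and Notch1 with 277 to 308 and 197 to 262 CPM. Of 12 tested matricellular and synapse proteins, 0 passed and 1, Spon1, was below in every cKO library, with 60.1 to 71.6 CPM in control and 32.5 to 50.6 CPM in cKO libraries; the median change was -0.20. All 9 calcium channel subunits were tested, 0 passed, and the median was 0.36. The 1 that lay above in every cKO library was Cacna1a, the pore-forming subunit of P/Q-type channels and the highest of the list, with 19.5 to 20.8 CPM in control and 22.4 to 27.6 CPM in cKO libraries (0.36 ± 0.16 (SE), adjusted p = 0.367 in edgeR). The highest of the other lists were Calr, the chaperone calreticulin, with 361 to 709 CPM in control and 433 to 572 CPM in cKO libraries, and Sparcl1, with 946 to 1466 and 1254 to 2374 CPM, and both overlapped.

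Astrocyte-like cells had 0 calls among 13 tested receptors and 11 tested matricellular proteins, and 1 among 8 channel subunits, where 1.06% of all genes were called. The called gene was Cacna1c, the pore-forming subunit of an L-type calcium channel that α2δ proteins accompany. It was at 4.10, 1.73 and 2.82 CPM in the control libraries, at 6.19, 11.5 and 12.1 CPM in the cKO libraries and at 8.04 CPM in the DKO library (1.78 ± 0.42 (SE), adjusted p = 0.0498 in edgeR). Of the 3 lists, 3 genes including Cacna1c lay above in every cKO library and 1 lay below, beside 6.87% and 7.14% of all genes. The other two above were Ncan, the proteoglycan neurocan, with 289 to 299 CPM in control and 314 to 364 CPM in cKO libraries, and Sparc, with 255 to 313 and 327 to 383 CPM. The gene below was Stim1, a calcium sensor of the endoplasmic reticulum, with 37.2 to 59.4 and 28.4 to 34.0 CPM. None of these 3 passed (adjusted p = 0.390 to 0.777 in edgeR). The highest levels in these cells were those of Calr, Sparcl1 and Cacna1d, whose groups overlapped.

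In ependymal-like and neuron-like cells 0 members of the 3 lists were called, where 0.0754% and 0.0159% of all genes were. Sparcl1, an astrocyte-secreted relative of SPARC that promotes synapse formation, was at 1209 to 1381 CPM in control and 716 to 910 CPM in cKO ependymal-like cells, with 1363 CPM in the DKO library (adjusted p = 0.299 in edgeR). It was 1 of 4 listed genes below in every cKO library in these cells, beside 7.06% of all genes, and 2 lay above, beside the 4.68% given for Thbs1. The others below were Stim1, with 80.3 to 94.3 CPM in control and 70.7 to 73.8 CPM in cKO libraries, Itgb5, with 46.7 to 52.7 and 38.7 to 45.1 CPM, and Cacnb1, a β subunit of calcium channels, with 10.1 to 12.6 and 7.32 to 9.25 CPM. Above were the integrin subunits Itga6, with 15.0 to 19.4 CPM in control and 19.8 to 31.4 CPM in cKO libraries, and Itga3, with 11.1 to 15.99 and 17.7 to 25.9 CPM. In neuron-like cells Sparc alone among the listed genes tested was separated, below with 14.4 to 22.4 CPM in control and 9.61 to 14.2 CPM in cKO libraries, as were 6.13% of all genes. Calr, Sparc and Cacna1d had the highest levels of their lists in ependymal-like cells and Cd47, Ncan and Cacnb4 in neuron-like cells, and the groups of these 6 overlapped.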

How the data were processed

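Single cells of the V-SVZ were captured with 10x Genomics 3′ chemistry, and the authors deposited raw UMI counts per gene and barcode made with Cell Ranger and mm10 (6.1.1 in the submitters' notes, 6.0.1 or 6.1.1 in the file headers), with no normalization. From the counts, cells with 500 to 7000 genes and at most 10% mitochondrial UMIs were kept and classed by marker scores (minimum 0.4, lead over the next class 0.15); the scoring rule was set after marker values were seen, but without those of the 5 genes. Of 9629 astroglia, 1159 fell between NSC-like and astrocyte-like cells. Marker scores, Leiden clusters (resolution 0.5) and Scrublet (2.41% doublets, kept in the main values) were run in scanpy 1.11.5. Counts were summed per library and class with at least 10 cells in each library, and compared with edgeR 4.0.16 (filterByExpr, TMM, quasi-likelihood, Benjamini-Hochberg over all genes, threshold 0.05) in 1 fit of 7 libraries; class contrasts used the 3 control libraries with library as a block. On simulated NSC-like sums, 126 of 200 genes changed by 1 on the log2 scale were recovered with 9 false calls among 14238 genes. The changed genes were drawn above a minimum level, with the same change in every cKO library and 1 common dispersion. That recovery therefore does not carry over to low genes such as Thbs1 or to changes that differ between cKO libraries. The members and lists were chosen with earlier results of these data known. Genes named beyond the members were the listed genes that were called or did not overlap in the 4 classes examined, the highest of each list, and the 5 closest to Thbs4 in each likeness ranking. Agt, Crym, Urah, Gfap, Vim, Veph1, Hes5 and Hopx were named after their values were seen. The libraries are separate pools of mice. Same-numbered control and cKO libraries share no stated origin, and in oligodendrocyte-like cells, where all 3 pairs deviated together (correlations 0.30, 0.13 and 0.43), the replicate block changed no call. Each control library also correlated best with its own number in NSC-like, astrocyte-like, TAP-like and endothelial-like cells. In NSC-like cells the block raised the number of genes called, as given below, so the main comparison depends on this choice. Gene positions are from GENCODE vM21, which held 32158 (99.6%) of the gene identifiers. Strand use in counting is not given in the sources used here.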

Additional observations from a re-analysis of the deposited data

How the results depend on the processing

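The fitted Thbs4 change in NSC-like cells kept its direction in every alternative run, with -3.91 to -1.03 as libraries were left out in turn. Thbs4 was chosen for its fall in cKO libraries, so a kept direction in the same libraries is a description and no test. The 1 call among the other members became 4 with DESeq2, 2 with plain library totals, 4 without the low-count filter, 2 without doublets, 2 with Leiden clusters and 0 with NSC-like and astrocyte-like cells together, and 0 to 6 with single libraries left out. The last range includes the run without cKO library 1, a split tied to how the genes were chosen. With the replicate number as a block the 1 call became 5, and the genes called in NSC-like cells became 446. In NSC-like cells the deviations of same-numbered control and cKO libraries correlated at 0.25, 0.014 and 0.35, so only pair 2 was close to unrelated. Each control library correlated best with the cKO library of its own number. A batch shared by number was not tested. The genes called in NSC-like cells, 30 in the main comparison, numbered 556 with DESeq2, 156 with plain library totals, 478 without the filter, 67 with the Cell Ranger version as a block, 50 without doublets, 181 with Leiden clusters, 16 without Gfap and Vim in the gate, 47 with both astroglial classes together, and 0 to 1582 with single libraries left out. Thbs3 in NSC-like against astrocyte-like control cells turned to -0.27 over all 7 libraries and ran from -0.076 to 0.31 as control libraries were left out in turn (-0.076 without control library 3), in no case past the threshold. Cacna2d1 joined Thbs4 as a call between these classes with plain library totals (2 calls). The share of NSC-like cells with a Thbs4 UMI was 48.5%, 56.5% and 39.6% in control libraries 1, 2 and 3 and 31.4% in the DKO library at 2000 UMIs, 44.6% in the DKO library at 4000 UMIs, and 73.2%, 61.6% and 52.0% in control libraries 2 and 3 and the DKO library without thinning. The causes were not tested.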
